A study of Mus musculus with 18 samples.

Results

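The soleus is a small postural muscle of the calf that is rich in slow, oxidative fibres. Its RNA was compared here, across all expressed genes, between floxed controls and mice labelled as muscle knockouts of Site-1 Protease (S1P), the product of Mbtps1. The libraries were chosen by their titles, which place 9 of the 18 libraries of the study in this comparison: 5 soleus controls, numbered 34, 36, 37, 38 and 41, and 4 soleus knockouts, numbered 35, 39, 40 and 42. The study text gives 4 per group. The titles were followed. Control mice carried the Site-1 Protease floxed alleles without a recombinase. Knockout mice carried the same alleles and HSACre+, a Cre transgene under the human skeletal actin promoter, which acts in muscle fibres and not in the other cells of a muscle. Both groups were 12 weeks old, ate chow and were fasted for 4 h, and there was no group with Cre alone, so the deletion and the transgene cannot be told apart. The other 9 libraries came from the gastrocnemius, a mainly fast muscle of the same calf, with 5 controls and 4 knockouts of the same genotypes. No label states that each library came from a separate mouse, so the p-values measure the spread between these samples, which may in part be technical.

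S1P is a protease of the Golgi that cuts membrane-bound proteins within the secretory pathway. Its best known substrates are transcription factors that are held in membranes until they are cut: the SREBPs, which switch on cholesterol and fatty acid synthesis, and ATF6, which switches on chaperones of the endoplasmic reticulum. It also cuts enzymes on the way to other compartments, among them the enzyme that tags proteins for the lysosome. Slow fibres of the soleus express their own set of contractile and calcium-handling proteins, and the balance between slow and fast sets responds to nerve activity and load.

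The soleus libraries held 46.5 to 78.2 M counts in controls and 46.2 to 68.3 M in knockouts. Their tissue label fitted their markers: all 7 slow-fibre markers were higher in soleus than in gastrocnemius controls without overlap, and 7 of 8 fast-fibre markers were lower, with Myh1 overlapping. The fast myosin Myh4 varied widely among soleus controls, from 21.2 to 738 CPM per kb of exon. Mitochondrial transcripts took 9.43 to 10.4% of counts in controls and 9.66 to 12.7% in knockouts, and titin alone took 14.3 to 15.1% and 11.9 to 14.7%. Knockout libraries 40 and 42 stood apart from the other 7 soleus libraries. On the first principal component of log2 CPM, which held 23.3% of the variance, they lay at 46.6 and 39.0, while knockout 35 lay at -14.9, knockout 39 at 2.2 and the 5 controls between -19.0 and -1.9. Results that rest on these libraries are given with and without them. No pair of libraries was close to sampling noise, so none were merged.

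Mbtps1 itself, on chr8:119508156-119558761 of GRCm38, did not separate the groups. The controls held 34.2, 36.3, 33.4, 34.7 and 37.3 CPM in the order of their numbers, and the libraries labelled knockout 39.4, 33.7, 39.9 and 38.1 CPM (counts per 1e6, scaled by TMM). The groups overlapped at a difference of 0.10 on the log2 scale (SE 0.07, adjusted p = 0.754, edgeR). A count over the whole gene cannot show whether the floxed exons were removed, and whole muscle also holds cells in which this Cre is not active, so these counts neither check nor contradict the labels. In whole muscle, fewer cells of a type and less RNA per cell cannot be told apart.

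In the soleus, 10 genes passed an adjusted p of 0.05, 7 higher and 3 lower in knockouts. They were 0.0553% of the 18087 genes tested (0.0387% higher and 0.0166% lower). At an unadjusted p under 0.05 there were 1481 genes, 8.19% of those tested. The groups did not overlap for 472 genes, which is 2.61%. All genes together were centred: 49.9% had a positive log2 fold change. Each of the 10 genes separated all 4 knockouts from all 5 controls, including knockouts 35 and 39. None of them had another called gene within 1 Mb. Without knockouts 40 and 42 edgeR called 5 genes, all of them among the 10. The number was 4 without control 34, 3 without control 37 and 66, including all 10, without knockout 35.

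Sox14, a transcription factor of the SOX family known from the developing nervous system, was close to absent in controls and present in every knockout. Control 34 held 1 count and the other 4 controls held 0. The knockouts held 108, 273, 245 and 190 counts, or 2.36, 4.12, 5.07 and 3.40 CPM. The ratio of the summed counts, each per summed library size, was 1130 (exact 95% interval 202 to 44669, counting error only; adjusted p = 4.99e-07, edgeR). The gene lies on chr9:99874106-99876170, minus strand. Sox14 kept its call in all 20 alternative fits, with a highest adjusted p of 0.000161 (edgeR).

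A further 3 genes of low level rose. Fam71e2 (chr7:4753226-4771302) held 0 to 2 counts per control and 10, 23, 24 and 28 counts in knockouts 35, 39, 40 and 42. Its log2 fold change was 4.37 (SE 0.57, adjusted p = 0.0135, edgeR). Maats1 (chr16:38297754-38342143), also known as Cfap91, a protein of the ciliary axoneme, held 5, 0, 10, 0 and 4 counts in controls and 35, 72, 47 and 35 in knockouts, a change of 3.76 in log2 (SE 0.57, adjusted p = 0.0297, edgeR). Catsperg1 (chr7:29181321-29214035), a subunit of the sperm calcium channel, was at 0.700, 0.728, 0.741, 0.285 and 0.649 CPM in controls and 1.66, 2.01, 2.25 and 2.41 CPM in knockouts, a change of 1.73 in log2 (SE 0.25, adjusted p = 0.0226, edgeR). In all 3 genes every knockout lay above every control. These calls were less firm. Fam71e2 lost its call without control 37 (adjusted p = 0.0592, edgeR) and without knockouts 40 and 42 together (0.266). Maats1 lost it without control 34 (0.104), 37 (0.0592), 38 (0.0578) or 41 (0.0939) and without knockout 39 (0.0837), 40 (0.0933) or both 40 and 42 (0.164), all adjusted p from edgeR. In the fit of all 18 libraries the adjusted p of Catsperg1 was 0.165. Catsperg1 also lost its call without control 34 (0.0753), 36 (0.0548), 37 (0.0733) or 41 (0.0703), without knockout 39 (0.0626), 40 (0.0656) or 42 (0.0631), and without 40 and 42 together (0.266). With 1 surrogate variable the adjusted p of edgeR was 0.0669 for Fam71e2, 0.0939 for Maats1 and 0.0960 for Catsperg1.

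**Figure D1:**
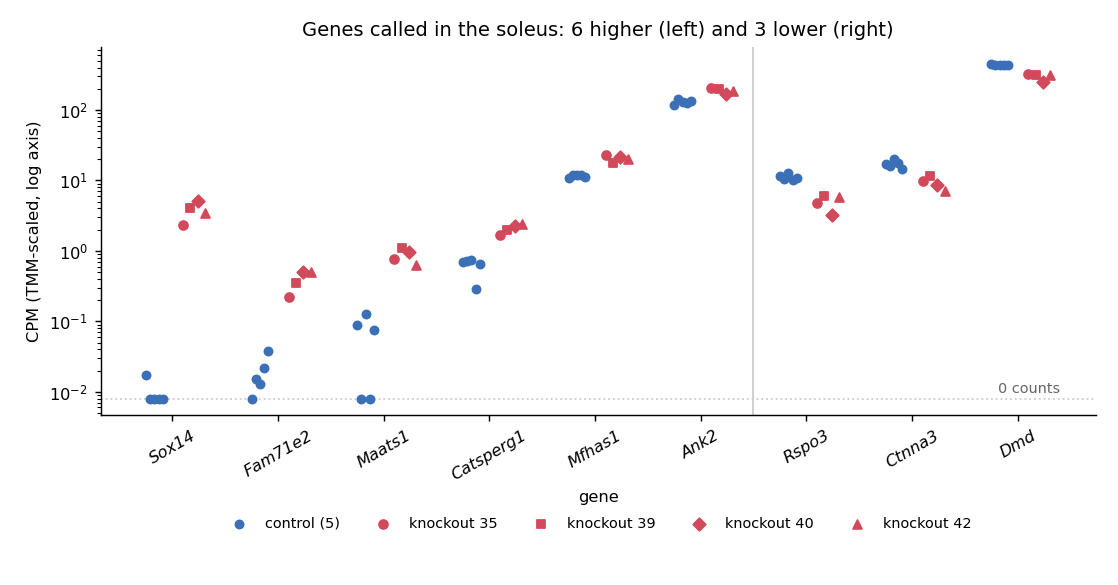
Levels of 9 called genes in each of the 9 soleus libraries, in counts per 1e6 (TMM-scaled) on a log axis. Blue points are the 5 controls and red symbols the 4 knockouts by library number. Points on the dotted line hold 0 counts. For each gene the knockouts lie on a single side of all controls, by a wide gap for Sox14 and a narrow gap for Ank2 and Ctnna3.

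The 250 bases before the RefSeq start sites of Sox14, Fam71e2 and Maats1, the 3 called genes that were at or near 0 counts in controls and have an entry, are shown so that their upstream sequence can be read beside the values. They are in GRCm38.p6 and in the direction of transcription, which is the minus strand for all 3: Sox14 at chr9:99876171-99876420, Fam71e2 at chr7:4771271-4771520 and Maats1 at chr16:38341861-38342110. The genes as counted reach chr7:4771302 for Fam71e2 and chr16:38342143 for Maats1. The Fam71e2 window thus overlaps its counted gene, and the Maats1 window lies within it. Capitals mark the E-box CANNTG, the core motif bound by myogenic factors. The pattern CANNTG reads the same on both strands, though a single match need not.
Sox14: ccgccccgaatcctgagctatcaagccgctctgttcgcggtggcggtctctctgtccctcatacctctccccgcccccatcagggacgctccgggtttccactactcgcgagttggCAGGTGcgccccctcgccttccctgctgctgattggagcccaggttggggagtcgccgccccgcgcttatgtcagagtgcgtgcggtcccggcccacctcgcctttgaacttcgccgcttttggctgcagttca
Fam71e2: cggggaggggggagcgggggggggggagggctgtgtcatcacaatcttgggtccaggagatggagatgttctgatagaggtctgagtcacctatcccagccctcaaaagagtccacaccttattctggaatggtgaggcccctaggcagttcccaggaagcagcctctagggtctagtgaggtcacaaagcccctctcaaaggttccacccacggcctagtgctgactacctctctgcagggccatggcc
Maats1: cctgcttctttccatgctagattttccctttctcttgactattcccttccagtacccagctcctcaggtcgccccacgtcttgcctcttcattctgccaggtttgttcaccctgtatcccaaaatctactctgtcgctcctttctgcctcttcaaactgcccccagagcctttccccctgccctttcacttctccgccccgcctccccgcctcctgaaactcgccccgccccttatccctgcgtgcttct
The Sox14 window held 1 E-box and the other 2 windows held 0. E-boxes were found in 8 of the 14 windows of the 7 called genes with an entry, and in 59.2% of the 15264 windows of tested genes. None of the 14 windows held the sterol response element TCACNCCAC (1.06% of windows of tested genes), the ATF6 element TGACGTGG (0.694%), the cyclic AMP response element TGACGTCA (2.38%) or the 19-letter endoplasmic reticulum stress element (0.111%), each searched on both strands. The ATF6 and cyclic AMP elements share the letters TGACGT. Absence of a match says only that these letters were not in these windows.

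Mfhas1 and Ank2 were expressed in controls and rose in knockouts. Mfhas1 (chr8:35587798-35679449), a leucine-rich repeat protein with a GTPase-like domain, held 10.86, 12.09, 11.92, 11.84 and 11.01 CPM in controls and 22.78, 17.96, 21.34 and 19.99 CPM in knockouts. The groups were well apart, with a 1.78-fold rise and a change of 0.83 in log2 (SE 0.08, adjusted p = 0.000852, edgeR), and the call held in all 20 alternative fits. Ank2 (chr3:126921606-127499259), which encodes ankyrin-B, an adaptor between membrane proteins and the spectrin skeleton, held 119, 143, 131, 124 and 135 CPM in controls and 203, 196, 171 and 185 CPM in knockouts. Its log2 fold change was 0.53 (SE 0.07, adjusted p = 0.0181, edgeR). The knockouts did not overlap the controls, but the adjusted p exceeded 0.05 without control 34 (0.0753), 37 (0.0733) or 38 (0.0599).

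Dmd, Ctnna3 and Rspo3 fell. Dmd (chrX:82948870-85206141), which encodes dystrophin, the link between the cytoskeleton and the sarcolemma, was close to constant in controls at 456, 437, 437, 435 and 437 CPM. The knockouts held 321, 313, 247 and 311 CPM. Every knockout was below every control and knockout 40 was the lowest, with a change of -0.56 in log2 (SE 0.08, adjusted p = 0.0221, edgeR). The adjusted p was 0.0579 without knockouts 40 and 42, 0.0939 with 1 surrogate variable and 0.0581 in the fit of all 18 libraries. It was 0.0843, 0.0548, 0.0766, 0.0599 or 0.0660 when control 34, 36, 37, 38 or 41 was left out.

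The dystrophin complex list was evenly split. Of the 20 members of the dystrophin complex list, which holds dystrophin, its partners and other proteins of muscular dystrophies, Dmd alone was called. The list divided into 10 positive and 10 negative log2 fold changes with a median of 0.00, as for all genes. The sarcoglycans Sgca, Sgcb and Sgcd were at -0.01, -0.02 and 0.03, dystroglycan Dag1 at 0.04 and the dystrophin relative utrophin (Utrn) at 0.01. The 2 members other than Dmd with an unadjusted p under 0.05 were caveolin-3 (Cav3), at 0.25, and the protease calpain-3 (Capn3), at -0.24.

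Ctnna3 (chr10:63430098-65003667), an alpha-catenin of cell junctions in striated muscle, held 17.3, 16.2, 20.1, 17.8 and 14.6 CPM in controls and 9.94, 11.6, 8.52 and 7.19 CPM in knockouts. The groups did not overlap, with a change of -0.88 in log2 (SE 0.13, adjusted p = 0.0297, edgeR). Lrrtm3 lies on the opposite strand within it with a mean of 122 counts against 806 for Ctnna3, and no source used here gives whether reads were counted by strand. The adjusted p of Ctnna3 exceeded 0.05 without control 34 (0.104), 36 (0.0725), 37 (0.0969) or 38 (0.105), without knockout 40 (0.118) or both 40 and 42 (0.181), with 1 surrogate variable (0.0939), in the fit of all 18 libraries (0.0781) and at a minimum count of 50 (0.0514). Dmd and Ctnna3 are among the longest genes, at 2257272 and 1573570 bp. Of the 40 tested genes that span at least 1 Mb, 23 had a negative log2 fold change, with a median of -0.03. At an unadjusted p under 0.05, 9 of the 40 were lower and 1 was higher, against 3.27% and 4.92% of all tested genes. The 9 include Dmd and Ctnna3 themselves, so this count is not independent of their calls. Among 113 tested genes of 500 kb to 1 Mb, 9 were higher and 9 lower at an unadjusted p. Ank2, which was called higher, spans 577654 bp.

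Rspo3 (chr10:29453109-29535867), a secreted R-spondin that strengthens WNT signalling, held 11.5, 10.6, 12.9, 10.1 and 10.7 CPM in controls and 4.73, 5.93, 3.25 and 5.88 CPM in knockouts. Every knockout was well below every control, a 2.25-fold fall with a change of -1.17 in log2 (SE 0.16, adjusted p = 0.0168, edgeR). It kept its call without knockouts 40 and 42 and lost it without control 34 (0.0753) or 37 (0.0592) and with 1 surrogate variable (0.0939).

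The 15 genes next in order of p had adjusted p-values from 0.0693 to 0.0936 in edgeR, with no overlap between the groups in any. They were chosen by their p and are given as values. The edgeR fit of all 18 libraries, which called 28 soleus genes (0.151%), called 12 of the 15, with adjusted p-values from 0.00542 for Cp to 0.0420 for Carhsp1, and not Myl2 (0.0643), Fras1 (0.132) or 2310043L19Rik (0.140). Those with positive log2 fold changes included the WNT antagonist Frzb, with 3.23 to 5.81 CPM in controls and 8.53 to 9.77 CPM in knockouts (0.93, SE 0.16), the RAC activator Tiam1, with 5.36 to 8.47 and 10.5 to 12.0 CPM (0.67, SE 0.12), the calcium channel subunit Cacnb4, with 0.573 to 1.20 and 1.93 to 2.99 CPM (1.35, SE 0.24), and the sulfotransferase Chst3, with 2.99 to 3.85 and 4.79 to 8.37 CPM (0.91, SE 0.16). The TNF receptor family member Eda2r was at 7.56 to 10.2 CPM in controls and 13.1 to 22.9 CPM in knockouts (0.88, SE 0.16). On the negative side, ceruloplasmin (Cp), a copper-carrying ferroxidase, was at 26.1 to 32.4 CPM in controls and 14.7 to 23.5 CPM in knockouts (-0.70, SE 0.12), and the basement membrane protein Fras1 was at 27.7 to 37.6 and 17.7 to 25.4 CPM (-0.63, SE 0.11). Cp is overlapped on the other strand by Hps3.

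No member of the slow-fibre list was called by edgeR, but most of its contractile genes lay on the same side. Of 17 tested members, 13 had a negative log2 fold change (median -0.28, against 0.00 for all genes). At an unadjusted p under 0.05, 10 were lower (3.27% of all tested genes were) and 3 were higher (4.92%). The groups did not overlap for 6 members on the lower side (1.2% of all tested genes) and 2 on the higher side (1.41%). DESeq2 called 4 of them: Myl2, Tecrl and Myl3 lower and Sln higher. limma voom called 0. Over all genes DESeq2 called 166, or 0.918% of those it tested, and limma voom 10, or 0.0553%. The list's scores (mean log2 CPM with 0.5 CPM added, centred per gene) were -0.00 to 0.19 in controls. In knockouts 35, 39, 40 and 42 they were -0.12, -0.05, -0.34 and 0.03, so knockout 42 lay among the controls. Without knockouts 40 and 42 the list median was -0.21, and the list was described with earlier results of these libraries known.

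Myl2, the slow regulatory myosin light chain, came nearest to the threshold. It was at 1360, 1332, 1649, 1532 and 1260 CPM in controls and 961, 944, 624 and 940 CPM in knockouts. All 4 knockouts were below all 5 controls, with knockout 40 the lowest, at a change of -0.72 in log2 (SE 0.13, adjusted p = 0.0851, edgeR). Myl3, the slow essential light chain, was at 2286 to 2857 CPM in controls and 2273, 2206, 1675 and 1705 CPM in knockouts, again without overlap. Atp2a2, the slow calcium pump SERCA2, was at 3767 to 4496 CPM and at 3234, 3338, 2189 and 3628 CPM. The slow troponin subunits Tnnc1, Tnni1 and Tnnt1 had log2 fold changes of -0.34, -0.28 and -0.34, and slow myosin heavy chain Myh7 -0.36 (SE 0.13), with 8890 to 12510 CPM in controls and 8988, 8321, 6372 and 10090 CPM in knockouts. Troponin C was without overlap, whereas Tnni1, Tnnt1 and Myh7 overlapped.

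The 3 members higher at an unadjusted p were 2 inhibitors of the calcium pump and a light chain of developing and slow muscle. Sarcolipin (Sln) was at 10.7, 19.3, 19.1, 20.4 and 17.5 CPM in controls and 20.5, 31.4, 42.8 and 35.0 CPM in knockouts (0.90, SE 0.23). Phospholamban (Pln) was at 22.4 to 27.9 CPM and at 29.3, 29.7, 32.6 and 28.5 CPM (0.28, SE 0.08). Neither overlapped, though Sln in knockout 35 lay only just above control 38. The light chain Myl6b was at 20.9 to 32.7 CPM in controls and at 31.9, 29.2, 62.3 and 84.7 CPM in knockouts, so that its difference lay in knockouts 40 and 42.

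**Figure D2:**
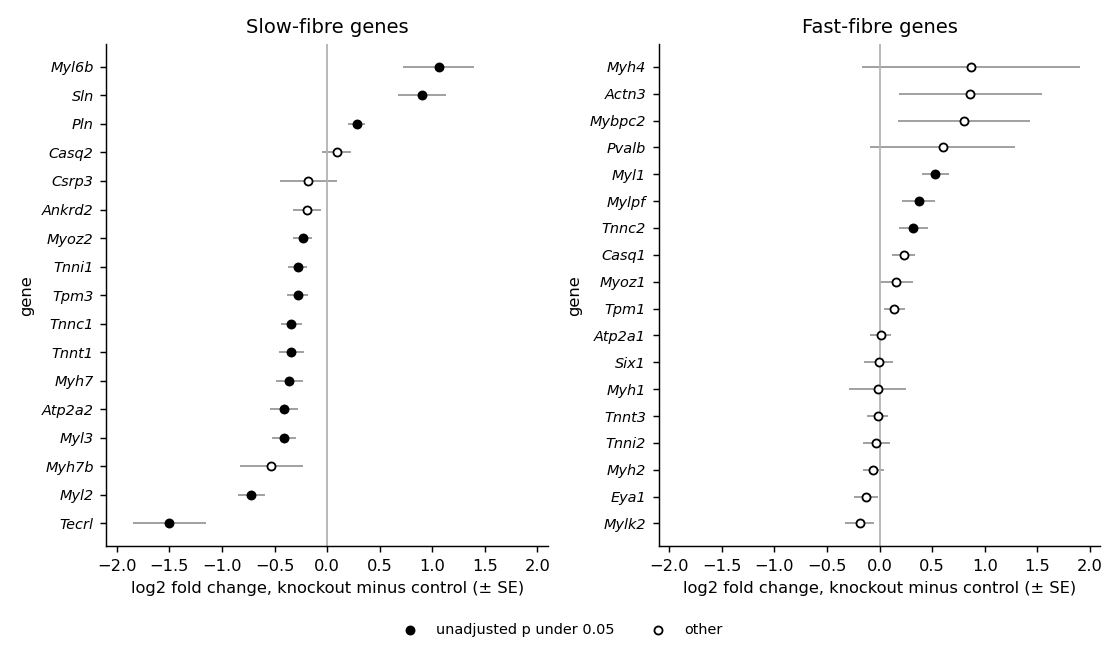
Log2 fold change (knockout minus control, with its SE, edgeR) of each slow-fibre gene (left, 17 genes) and fast-fibre gene (right, 18 genes) in the soleus. Filled points have an unadjusted p under 0.05. Most slow-fibre genes lie left of 0, while Sln, Pln and Myl6b lie right of it, and the fast genes Myh4, Actn3, Mybpc2 and Pvalb have wide errors.

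The fast-fibre list had a median of 0.15, with 11 of 18 members positive, 0 called by edgeR and 3 higher at an unadjusted p under 0.05. DESeq2 called Myl1 alone and limma voom called 0. Myl1, the fast essential light chain, was at 1572, 1501, 1315, 1214 and 1471 CPM in controls and at 1699, 2129, 2683 and 1684 CPM in knockouts, without overlap (0.53, SE 0.13). The genes of the fastest fibres varied most between libraries of the same group. Myh4 was at 1627, 1795, 140, 2202 and 4814 CPM in controls and at 4788, 4306, 6177 and 246 CPM in knockouts, and parvalbumin (Pvalb) at 103 to 290 CPM and at 304, 257, 536 and 31.3 CPM. Control 37 was the lowest control for both genes and knockout 42 the lowest knockout, so the groups overlapped widely. Reads shared among the myosin heavy chain genes could have been split between them. The list's scores (mean log2 CPM with 0.5 CPM added, centred per gene) placed knockout 40 highest of all 9 libraries at 0.53 and knockout 42 lowest at -0.67.

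The target pathways of S1P showed no called gene. Across its 13 tested substrates, edgeR, DESeq2 and limma voom each called 0, and 1 had an unadjusted p under 0.05. The SREBP genes Srebf1 and Srebf2 were at 28.3 to 33.9 and 28.9 to 37.6 CPM, and at 18.1 to 24.5 and 19.1 to 24.2 CPM (controls, then knockouts), with overlap in both. Rai1 overlaps Srebf1 on the other strand, with a mean of 3463 counts against 1768 for Srebf1. Atf6 was at 57.0 to 71.0 and 62.8 to 68.8 CPM. The list's median log2 fold change was 0.11, and 0.03 without knockouts 40 and 42. These are RNA levels, so they hold no measure of cleavage.

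Cholesterol synthesis genes, the targets of SREBP2, had a median of -0.03 over 25 tested members. The 3 tools called 0 of them, and at an unadjusted p 1 was higher and 1 lower: the demethylase Cyp51 at 0.33 (SE 0.15) and squalene synthase Fdft1 at -0.23 (SE 0.10), which Ctsb overlaps on the other strand. Fatty acid synthesis genes, the targets of SREBP1, had a median of -0.02 over 20 members, again with 0 calls by each tool and 2 lower at an unadjusted p. Malic enzyme Me1 had the smallest p among them, at 41.4 to 45.2 CPM in controls and 32.2 to 43.1 CPM in knockouts (-0.23, SE 0.08). The ER chaperones that ATF6 controls had a median of -0.07 over 22 members, 17 of them negative, with 0 calls by each tool and 0 at an unadjusted p under 0.05. Calreticulin (Calr) was at 115 to 131 CPM in controls and 105 to 129 CPM in knockouts. The chaperone BiP (Hspa5) was at 260, 196, 182, 174 and 128 CPM in controls, a wider spread than the 128 to 177 CPM of the knockouts. The integrated stress response list had a median of 0.00 over 23 tested members, the Golgi and COP transport list -0.02 over 25, and the autophagy list -0.04 over 20, with 0 calls by the 3 tools in each and 1, 1 and 0 members lower at an unadjusted p.

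Lysosomal genes had 27 of 37 members positive, against 49.9% of all genes, with a small median of 0.07. At an unadjusted p under 0.05, 7 were higher and 0 lower, against 4.92% and 3.27% of all genes. edgeR and limma voom called 0, and DESeq2 called the cathepsins Ctsl and Ctss higher. Ctsl was at 60.4 to 75.3 CPM in controls and 73.7, 86.1, 91.0 and 87.7 CPM in knockouts (0.32, SE 0.08), so that only knockout 35 overlapped the controls. Ctss, which is mainly made by immune cells, was at 2.36 to 4.17 CPM and at 3.20, 3.57, 9.82 and 7.30 CPM, with knockouts 40 and 42 high. Without these libraries the list median was 0.02.

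In energy metabolism, no gene was called by edgeR or limma voom. Glycolysis, glycogen and lactate genes were positive in 26 of 32 cases (median 0.11), 6 higher at an unadjusted p (4.92% of all genes) and 0 lower. Gapdh was at 1801 to 2441 CPM in controls and 2442 to 3104 CPM in knockouts, and hexokinase Hk1 at 16.6 to 19.6 and 20.2 to 27.0 CPM. Neither overlapped, though the Gapdh ranges almost met. DESeq2 called Hk1. The list median without knockouts 40 and 42 was 0.18. It was 0.07 without knockout 40 alone and 0.19 without knockout 42 alone. The list's scores were 0.07, 0.16, 0.16 and -0.19 in knockouts 35, 39, 40 and 42, against -0.13 to 0.06 in controls. Knockout 42 was thus the lowest of the 9 libraries. Fatty acid uptake and oxidation genes had 27 of 30 members negative (median -0.11), 5 of them lower at an unadjusted p (3.27% of all genes), among them the transporter Slc27a1 at 158 to 216 CPM in controls and 173, 150, 129 and 144 CPM in knockouts. That direction did not hold without knockouts 40 and 42, where the median was 0.01 and 18 of 30 members were positive. Nuclear genes of complexes I, IV and V each had a median of -0.03, and those of complexes II and III 0.01. These medians turned with single libraries: complex I was at 0.06 with 31 of 33 positive without knockouts 40 and 42, at 0.03 with 25 of 33 without 42, and at -0.12 with 1 of 33 without 39. Complex V went from 14 of 16 negative to 15 of 16 positive (median 0.05) without 40 and 42, and was at -0.13 without 39. Complex IV and complexes II and III were at 0.04 and 0.06 without 40 and 42, and at -0.12 and -0.09 without 39. Knockout 39 had the highest score and knockout 42 the lowest of the 9 libraries in each of these 4 lists. All 13 mitochondrially encoded mRNAs were positive with a median of 0.15, and 1 had an unadjusted p under 0.05. Knockout 39, which had the largest share of mitochondrial counts, had the highest score at 0.33, and without it the median was 0.06 with 10 of 13 positive.

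The score of the denervation and regeneration list was high in knockouts 40 and 42 and at control level in 35 and 39. The list, which holds receptor subunits, myogenic factors and embryonic genes that muscle re-expresses when nerve input is lost or fibres regrow, had 22 of 29 tested members positive and a median of 0.35. At an unadjusted p under 0.05, 11 were higher and 1 lower, against 4.92% and 3.27% of all tested genes. Its scores were -0.22 to -0.07 in controls and -0.14, -0.15, 0.55 and 0.45 in knockouts 35, 39, 40 and 42. Without 40 and 42 the median was 0.04, with 16 of 29 positive. edgeR on the soleus libraries and limma voom called 0, and the edgeR fit of all 18 libraries called Chrng. DESeq2, which called 0.918% of all genes, called 4: Chrng, Sln and Mymk higher and Dach2 lower.

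The embryonic acetylcholine receptor subunit Chrng was an exception to this division. It was at 0.245, 0.561, 0.409, 0.350 and 0.401 CPM in controls and at 1.36, 0.739, 2.94 and 1.57 CPM in knockouts, so that all 4 knockouts exceeded the controls (2.05, SE 0.36, adjusted p = 0.0830, edgeR). The edgeR fit of all 18 libraries called it in the soleus (adjusted p = 0.0148). Dach2, a repressor that innervated muscle expresses, was also apart in every knockout, at 10.6 to 15.8 CPM in controls and 2.91, 5.74, 0.786 and 3.38 CPM in knockouts (-1.97, SE 0.45). The fusion factor Mymk followed the main pattern, at 0.0438 to 0.191 CPM in controls and at 0.0875, 0.196, 5.87 and 1.45 CPM in knockouts. So did Runx1, a transcription factor of denervated muscle, at 8.70 to 11.8 CPM and at 13.5, 10.3, 45.1 and 19.3 CPM, and myogenin (Myog), at 2.35 to 3.70 CPM and at 2.76, 4.45, 8.35 and 8.05 CPM. The embryonic actin Actc1 was high in knockout 40 alone, at 92.6 CPM against 9.92 to 16.8 CPM in the other 8 libraries. Actins share much of their sequence, so its reads may have been split.

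Collagen and cell cycle scores were also above all controls in knockouts 40 and 42, while those of other matrix genes and fibroblast markers were so in knockout 40 alone. In 40 and 42 the collagen scores were 0.52 and 0.33 (controls -0.28 to 0.08) and the cell cycle scores 0.32 and 0.49 (controls -0.19 to -0.02). No gene of these lists or of the macrophage list was called by edgeR, DESeq2 or limma voom. Collagens had 20 of 22 members positive (median 0.30) and 8 higher at an unadjusted p (4.92% of all tested genes were), and the median was 0.02 without knockouts 40 and 42. Col3a1 was at 380 to 574 CPM in controls and 540, 474, 1256 and 953 CPM in knockouts. For other matrix genes the median was 0.28, with 24 of 31 positive. It was 0.05 without knockout 40 (16 of 31 positive), 0.29 without knockout 42 (25 of 31) and 0.00 without both. Their scores were 0.62 in knockout 40 and 0.01 in knockout 42, against -0.30 to 0.14 in controls. Unlike the list as a whole, tenascin-C (Tnc) was high in both libraries, at 5.64 to 7.16 CPM in controls and 8.38, 6.03, 34.3 and 20.2 CPM in knockouts. Among 19 tested cell cycle genes 16 were positive, at a median of 0.27, and -0.05 without 40 and 42. Fibroblast markers had a median of 0.26, with 12 of 13 tested members positive, which was 0.12 without knockout 40, 0.27 without knockout 42 and 0.08 without both. Their scores were 0.47 and 0.09 in these libraries against -0.29 to 0.20 in controls, and their summed level was 866 to 1236 CPM in controls and 917 to 1290 CPM in knockouts.

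Macrophage markers had the highest median of the marker lists, 0.51, with 13 of 15 members positive and 7 higher at an unadjusted p (4.92% of all tested genes were). Their summed level ran from 91.9 to 152 CPM in controls and was 141, 115, 216 and 143 CPM in knockouts 35, 39, 40 and 42, with no marker at 0 counts. Their scores were 0.04, -0.14, 0.78 and 0.19 in these knockouts, against -0.43 to 0.14 in controls. By score, knockouts 40 and 42 lay above all controls, 42 only narrowly. Lyz2, a lysozyme of myeloid cells, was at 12.8 to 19.5 CPM in controls and 18.1, 19.0, 42.4 and 26.4 CPM in knockouts, and Mpeg1 at 1.56 to 3.78 CPM and 2.85, 2.71, 15.7 and 11.2 CPM. The median was 0.24 without knockout 40, 0.45 without knockout 42 and 0.14 without both. The part of these cells in the matrix and denervation values was not tested.

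**Figure D3:**
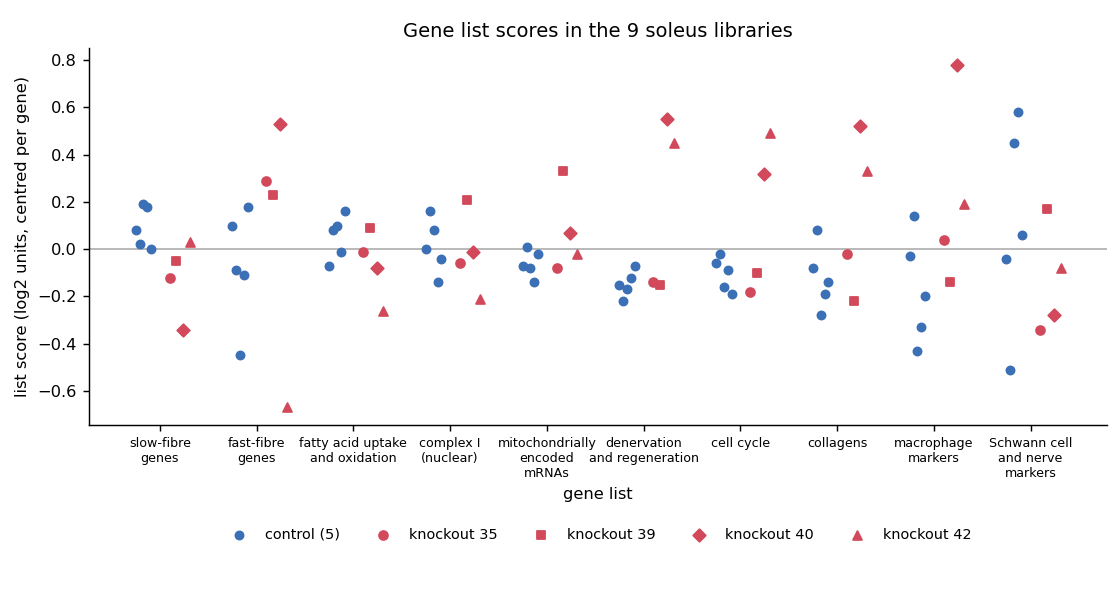
Score of 10 gene lists in each of the 9 soleus libraries, as the mean over tested members of log2 CPM (0.5 CPM added) centred on each gene's mean. Blue points are the 5 controls and red symbols the 4 knockouts by library number. In the denervation, cell cycle, collagen and macrophage lists knockouts 40 and 42 lie above all other libraries, while 35 and 39 lie among or near the controls.

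Of the remaining lists, Schwann cell and nerve markers had 14 of 17 tested members negative and a median of -0.34, but their scores ranged from -0.51 to 0.58 among controls and covered all 4 knockouts. Clock genes had 15 of 19 members negative (median -0.19), 3 of them lower at an unadjusted p (3.27% of all genes), and DESeq2 alone called the clock repressor Ciart, at 10.4 to 13.9 CPM in controls and 10.99, 8.32, 5.44 and 7.22 CPM in knockouts. The antioxidant list had 3 of 23 members without overlap on the higher side (1.41% of all tested genes), and DESeq2 (0.918% of all genes) alone called all 3: extracellular superoxide dismutase Sod3 (0.71, SE 0.15), thioredoxin reductase Txnrd1 (0.36, SE 0.08) and heme oxygenase Hmox1 (0.92, SE 0.27). Sod3 was at 12.8 to 16.4 CPM in controls and 18.4, 19.5, 29.7 and 29.6 CPM in knockouts. The ryanodine receptor Ryr3 was at 2.14 to 6.72 CPM in controls and 6.85, 6.63, 10.03 and 7.13 CPM in knockouts. Ciart and Ryr3 are overlapped on the other strand, by C920021L13Rik and Aven. Immediate-early genes, which respond quickly to stress and handling, were highest in control 34 (score 0.57) and knockout 40 (0.48). Over all 47 lists together, 941 distinct members were tested. edgeR called 1, Dmd, limma voom the same number (each 0.0553% of all genes), and DESeq2 18 (0.918%). The edgeR fit of all 18 libraries (0.151%) called 1, Chrng, and not Dmd. At an unadjusted p, 88 were higher and 48 lower, against 4.92% and 3.27% of all genes.

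The soleus had far fewer calls than the gastrocnemius, where the same test called 619 of 16393 genes, 3.78% (1.77% higher and 2.01% lower). Of the 10 soleus calls, 7 were also called there with the same sign, among them Sox14, Mfhas1, Maats1, Ank2, Dmd and Ctnna3. These 7 are 70% of the soleus calls and 1.13% of the gastrocnemius calls. Fam71e2 is not among the 7 because it was not tested in the fit of the gastrocnemius alone. In the fit of all 18 libraries it was called higher in the gastrocnemius too (adjusted p = 0.0169, edgeR). Its absence from the 7 therefore does not mark it as a call of the soleus only. For none of the 9 called genes described here was the difference between the muscles called in the fit of all 18 libraries (adjusted p from 0.924 to 1.0, edgeR), which does not show equal effects. Of the gastrocnemius genes that rose, 266 of 281 tested in the soleus were positive there, with a median of 0.34 in the soleus against 0.76 in the gastrocnemius. Without knockouts 40 and 42 the soleus median was 0.09. Of those that fell, 269 of 321 were negative in the soleus (median -0.11 against -0.39, and -0.05 without these libraries). The gastrocnemius medians are those of genes chosen by their result in that muscle, which tends to enlarge them. The medians therefore do not compare the size of the effect between the muscles. Controls and knockouts follow in the same order of library numbers in both muscles. If the same mice gave both, which no label states, the shared calls and signs are not independent. A call in the 1 muscle and not in the other does not show a difference, so the difference itself was fitted over all 18 libraries.

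That difference was called for 13 of 18494 genes, 0.0703%, with 11 differences above 0 (0.0595%) and 2 below (0.0108%), and 999 genes (5.4%) had an unadjusted p under 0.05. In each of the 13, the gastrocnemius had the larger change or the muscles differed in sign. Cd28, a costimulatory receptor known from T cells, fell in the gastrocnemius by 2.47 on the log2 scale and was at -0.65 (SE 0.18) in the soleus, a difference of 1.82 (SE 0.27, adjusted p = 0.0133, edgeR). In the soleus it held 2.47, 3.20, 3.69, 2.91 and 3.68 CPM in controls and 2.06, 2.25, 1.49 and 2.38 CPM in knockouts, which did not overlap. In the gastrocnemius it was at 4.12 to 5.47 CPM in controls and 0.621 to 1.18 CPM in knockouts. The call of Cd28 held in all 28 alternative fits. The calls of the other 12 genes were less firm: Lrtm1 lost its call only without knockouts 40 and 42 of the soleus (adjusted p = 0.0565, edgeR), and Xpr1 without these 2 (0.0565), soleus control 37 (0.0533), soleus knockout 39 (0.0507) or gastrocnemius knockout 6 (0.0512).

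The secreted muscle peptide Ostn was at 8.28 to 15.7 CPM in soleus controls and 6.12 to 14.9 CPM in soleus knockouts, against 9.27 to 19.0 and 1.65 to 3.19 CPM in the gastrocnemius. The difference was 2.26 (SE 0.39, adjusted p = 0.0380, edgeR). Pyruvate carboxylase (Pcx), which feeds the citric acid cycle, was at 41.6 to 43.2 and 41.7 to 47.6 CPM in the soleus and fell in the gastrocnemius from 91.3 to 106 CPM to 57.3 to 78.7 CPM, a difference of 0.57 (SE 0.11). Lrfn4 overlaps Pcx on the other strand. Of the 18 fits that each left out 1 library, Ostn lost its call in 17 (all but that without soleus knockout 40) and Pcx in 15 (all but those without soleus knockout 40 or gastrocnemius knockout 7 or 9), with adjusted p-values up to 0.111 and 0.108 (edgeR). The phosphate exporter Xpr1 and Cbfb, the partner subunit of RUNX factors, had soleus effects of 0.05 and 0.06 (SE 0.08 each) and gastrocnemius effects of -0.64 each. Cbfb lost its call without soleus control 37 (0.0533) or 38 (0.0530), soleus knockout 39 (0.0507), soleus knockouts 40 and 42 (0.0679), gastrocnemius control 1 (0.0539) or 5 (0.0523) or gastrocnemius knockout 6 (0.0512), all adjusted p from edgeR. The integrin subunit Itga4 was at 0.53 (SE 0.19) in the soleus and -0.99 (SE 0.18) in the gastrocnemius, and lost its call in 11 of those 18 fits. Lrtm1, a leucine-rich repeat membrane protein, and Mrvi1, a partner of the IP3 receptor in smooth muscle, were the 2 negative differences, of -1.44 and -0.83: they rose by 1.16 and 0.83 in the gastrocnemius and were at -0.28 (SE 0.14) and -0.00 (SE 0.11) in the soleus. Mrvi1 lost its call in 14 of the 18 fits.

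Other genes known to respond in the gastrocnemius knockouts had various soleus values. Sln had a soleus effect of 0.89 (SE 0.38) and a gastrocnemius effect of 4.40 (SE 0.51) in the common fit, and the difference of -3.51 did not pass the threshold (adjusted p = 0.0847, edgeR). Myostatin (Mstn), the inhibitor of muscle growth, was low in the soleus, at 0.409 to 1.57 CPM in controls and 0.215 to 1.84 CPM in knockouts, against 77.0 to 108 CPM in gastrocnemius controls. Srebf1, which Rai1 overlaps on the other strand, was at 0.11 (SE 0.11) in the soleus and -0.59 (SE 0.11) in the gastrocnemius. Its adjusted p for the difference was 0.0982 (edgeR). Sox14 was at 0 counts in all 5 gastrocnemius controls and at 5.36 to 7.72 CPM in the knockouts there.

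**Figure D4:**
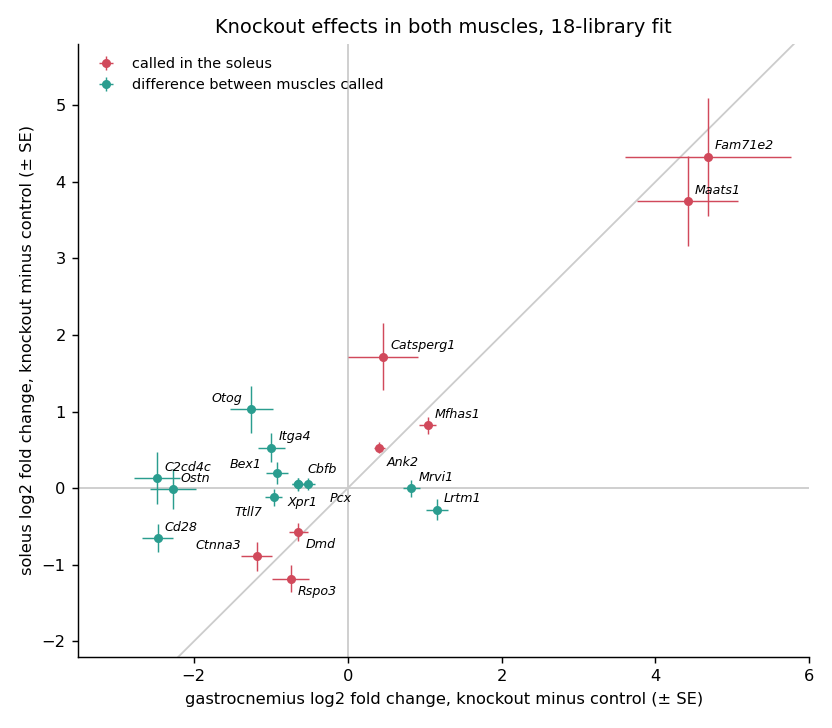
Knockout effect in the gastrocnemius (horizontal) and the soleus (vertical) as log2 fold changes with their SE, both from the edgeR fit of all 18 libraries. Red points are 8 of the 10 genes called in the soleus and green points 12 of the 13 genes whose difference between muscles was called; Sox14 and Slc4a10 are not drawn, since they have control groups at or near 0 counts. The red point farthest from the grey line of equal effects is Catsperg1, and the green points lie between -0.65 and 1.03 on the soleus axis.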

How the data were processed

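RNA from 18 mouse muscle libraries was sequenced after ribosomal RNA removal. Per the submitters' processing notes, reads were handled with bcl2fastq, STAR 2.5.1a and featureCounts 1.4.6-p5 of Subread, on GRCm38. Annotation release and strand setting are not stated in the labels. The authors deposited whole-number counts for 41388 features per library, with CPM and RPKM that equalled rescaled counts and were not used. Symbols from GENCODE matched 97.3% of features.

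Genes were filtered (edgeR filterByExpr, minimum count 10, total 15), scaled by TMM and tested with the quasi-likelihood test of edgeR 4.0.16 (R 4.3.3, robust) and Benjamini-Hochberg adjustment over all genes. A gene was called at an adjusted p under 0.05. The 9 soleus libraries were fitted alone, and the difference between muscles in a fit of all 18, with muscles treated as independent because no label ties those of 1 animal. The SE is the log2 fold change divided by the root of F. CPM were computed on TMM-scaled library sizes. Tests were checked on simulated counts. Alternatives were DESeq2 1.42.0 (size factors), limma 3.58.1 (voom), 1 surrogate variable (sva 3.50.0), other scalings and filters, each library left out, and, chosen after the data were seen, knockouts 40 and 42 left out.

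The comparison, its 47 gene lists and the genes to name were chosen with earlier results of these data known. The rule named Mbtps1, called genes (up to 12 per direction), up to 4 called members per list or the member with the smallest p, genes known from the gastrocnemius, and 10 genes of the difference between muscles with a mean log2 CPM of at least 1. Other list members and the next 15 genes by p were named after their values were seen. In all, 1 called gene and 1 list member were kept in all fits and counts but are not reported here.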

Additional observations from a re-analysis of the deposited data

Results flagged for a closer look

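In 196 groups of 4 or 5 soleus libraries, a single library lay far from the rest of its group in 14 (Dixon's test at 95%, by which chance marks about 1 in 20 groups). Control 34 was such a library for Dmd (456 CPM, the other controls 435.4 to 436.8), the myogenic factor Myf6 (37.52, others 28.51 to 30.1), the small heat shock protein Hspb8 (206.5, others 138.1 to 152.5), Sox14 (0.01749, others 0) and Ucp1 (0.03498, others 0). The last 2 values are 1 and 2 counts. Among the other controls these were Catsperg1 in control 38 (0.2845, others 0.6489 to 0.7412) and Srebf1 in control 41 (33.93, others 28.3 to 29.34).

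Knockout 40 lay apart for Dmd (247.2 CPM, the other knockouts 311.1 to 321), Myl2 (624.4, others 940.2 to 961.2), Ryr3 (10.03, others 6.633 to 7.134) and Actc1 (92.62, others 11.73 to 16.78). Knockout 35 did so for the endothelial marker Pecam1 (88.3, others 78.38 to 80.06) and for Tspan13 (24.77, others 35.2 to 37.28), and knockout 39 for Frzb (9.769, others 8.529 to 8.666). For Dmd, Myl2 and Frzb every knockout remained on the same side of every control.

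For 13 genes edgeR's test called a difference of the knockout effect between the muscles. The differences of log2 fold changes, soleus minus gastrocnemius, were 1.82 for Cd28, 2.26 for Ostn, 0.57 for Pcx, 0.69 for Xpr1, 0.70 for Cbfb, 1.12 for Bex1, 1.51 for Itga4 and 0.85 for Ttll7, and were -1.44 for Lrtm1 and -0.83 for Mrvi1. The remaining 3 genes were of low level and are named after their values were seen: C2cd4c at 2.61, Otog at 2.28 and Slc4a10 at 6.59. Slc4a10 had 0 counts in all 5 soleus controls and in knockout 40, so its fitted value depends on the prior count and is not a measure of size. Of the 18 fits that each left out 1 library, Otog lost its call in 15, Ttll7 and Slc4a10 in 13 each, Bex1 in 9 and C2cd4c in 8.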

How the results depend on the processing

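The number of called soleus genes depended on the setting, while Sox14 and Mfhas1 were called in all 20 alternatives. Against 10 (7 higher, 3 lower), DESeq2 called 166 (104 higher, 62 lower), edgeR without a low-count filter 48 (32 and 16), with 1 surrogate variable 4 (4 and 0), in the fit of all 18 libraries 28 (23 and 5), and without knockouts 40 and 42, chosen after seeing the data, 5 (4 and 1). A minimum count of 50 gave 7, and limma voom and the other scalings 10 each. Leaving out 1 library gave 3 to 66 calls (3 to 39 higher, 0 to 27 lower), with 4 without control 34, 3 without control 37 and 66 without knockout 35. For the difference between muscles, against 13 (11 and 2), DESeq2 called 52 (39 and 13) and 1 surrogate variable gave 25 (18 and 7). Without a low-count filter there were 17 (13 and 4), and leaving out knockouts 40 and 42 gave 7 (7 and 0). Leaving out 1 library gave 2 to 23 (1 to 16 higher, 1 to 7 lower). The causes of these changes were not tested.

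No paired analysis was run, because no label ties the muscles of 1 animal and the groups share no replicate numbers. By library number, however, controls and knockouts follow in the same order in both muscles. The same mice may therefore have given both muscles, which was not tested. The fit over both muscles would then have left out a pairing. Of single genes, 21 values changed sign, all of them of genes without a soleus call: Pcsk5 to -0.10 and Cbfb to -0.01 without knockouts 40 and 42, Cbfb to -0.01 with 1 surrogate variable, Ostn to 0.18 with it and 0.26 without the 2 knockouts, Pax7 to -0.46 and -0.44 in the same 2 settings, Mstn to -0.02 by limma voom, and Mrvi1 to -0.00 in the fit of all 18 libraries. With 1 library left out, Ostn ran from -0.16 to 0.20, Mstn from -0.13 to 0.50, Pax7 from -0.02 to 0.49 and Mrvi1 from -0.03 to 0.06. Of list medians, 63 moved by more than the spread of the controls' scores and 876 did not. With mitochondrial genes left out, the list of mitochondrial mRNAs has no value. Depth limits genes of few counts, among them Slc4a10, C2cd4c, Fam71e2 and Maats1, with 0 to 9, 6 to 13, 10 to 28 and 35 to 72 counts per soleus knockout.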
